A study of Drosophila melanogaster with 48 samples.

Results

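The p24 proteins are small transmembrane proteins that cycle between the endoplasmic reticulum (ER) and the Golgi. They pair with one another in mixed complexes, bind the COPII coat on vesicles that leave the ER and the COPI coat on vesicles that return to it, and load chosen cargo, among them lipid-anchored and other secreted proteins. The fly genes were chosen by FlyBase symbol, which gave 7 members, CHOp24, p24-1, p24-2, eca, bai, loj and opm, among 16160 genes present in all 6 tables of the series.

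RNA from gut and fat body of adult Drosophila females was sequenced in S106>Xbp1s, S106>Xbp1U and S106>Wdah flies, treated for 7 days with (RU+) or without (RU-) RU486. S106 is a GeneSwitch driver, active in gut and fat body when RU486 is fed. It drives the spliced form of Xbp1, the transcription factor of the unfolded protein response (UPR), in S106>Xbp1s and an unspliceable form in S106>Xbp1U, and no transgene in S106>Wdah. All flies carried S106 in the outbred Dahomey background with a white mutation, each library pooled tissue of several flies, and the fat body was taken attached to the abdominal cuticle. By the labels there were 48 libraries, falling into 12 groups with 3 to 5 each. S106>Xbp1s, S106>Xbp1U and S106>Wdah had 6, 8 and 9 gut libraries and 8, 7 and 10 fat body libraries, about evenly split between RU+ and RU-.

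Every value below comes from the authors' mean normalized count of a gene over the RU+ and RU- libraries of 1 genotype and tissue. The authors removed samples that clustered apart, among them samples of S106>Xbp1s gut and fat body and of S106>Wdah gut. Whether any of these is among the labelled libraries is not given. The tables used here hold no single library. A value therefore has no standard deviation and no n, no difference was tested, and the effect of RU486 is not analysed here. Whether differences exceed the spread between libraries is unknown, and only the spread over the 3 genotypes can be given. To set tables side by side, each mean was divided by the sum of means over the 16160 common genes and given as parts per 1000000 (ppm). The 100 genes with the highest means held 44.0% to 50.4% of a table. The depth of single libraries is unknown.

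Tissue labels were checked against marker genes. The 8 gut markers measured in every table, digestive enzymes among them, summed to 41240 to 51879 ppm in gut and 117 to 533 ppm in fat body. The 9 fat body markers, led by the yolk proteins, summed to 802 to 1936 ppm in gut and 63281 to 105545 ppm in fat body. Lsp2, a storage protein, was low in fat body at 1.81 to 3.66 ppm. bmm did not separate the tissues, with 157, 103 and 126 ppm in gut of S106>Xbp1s, S106>Xbp1U and S106>Wdah. In the matching fat bodies it had 180, 147 and 98.7 ppm, below gut in S106>Wdah. Oenocyte markers (3 of 3 measured) reached 28763 to 43584 ppm in the fat body tables, against 83.2 to 324 ppm in gut, and the muscle list (6 of 6) gave 1152 to 1254 ppm in gut and 1375 to 2172 ppm in fat body. Eggshell markers (5 of 5) summed to 7.54, 25.1 and 358 ppm in gut of S106>Xbp1s, S106>Xbp1U and S106>Wdah, and to 1466, 1985 and 3314 ppm in fat body. Germline markers (4 of 5) gave 2.70, 6.99 and 45.2 ppm in the same guts and 320, 321 and 358 ppm in the same fat bodies. Hemocyte markers (4 of 4) summed to 4.80 to 9.44 ppm in gut and 84.7 to 155 ppm in fat body, neuron markers (3 of 3) to 8.26 to 9.03 ppm and 11.0 to 16.1 ppm, and Uro, the Malpighian tubule marker, to 13.0 to 62.9 ppm and 27.7 to 46.4 ppm. No measured marker was at 0 in any table. Xbp1 itself stood at 581 ppm in S106>Xbp1s, 563 ppm in S106>Xbp1U and 437 ppm in S106>Wdah guts, and at 392, 308 and 291 ppm in the matching fat bodies. Reads over exons do not separate transgene from endogenous Xbp1.

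Of the 7 p24 genes, 6 had a mean of at least 10 in every table and all 6 were expressed in both tissues in every genotype. The family summed to 407 ppm in S106>Xbp1s, 327 ppm in S106>Xbp1U and 344 ppm in S106>Wdah guts, and to 290, 344 and 322 ppm in the matching fat bodies. The log2 gut over fat body ratio of the sum was 0.49 in S106>Xbp1s, -0.074 in S106>Xbp1U and 0.097 in S106>Wdah. With tables scaled by the median of ratios these were 1.07, 0.56 and 0.46, so S106>Xbp1s had the largest ratio on both scales and the sign in S106>Xbp1U depended on the scaling. In these bulk tissues, fewer cells of a type and less RNA per cell cannot be told apart.

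**Figure D1:**
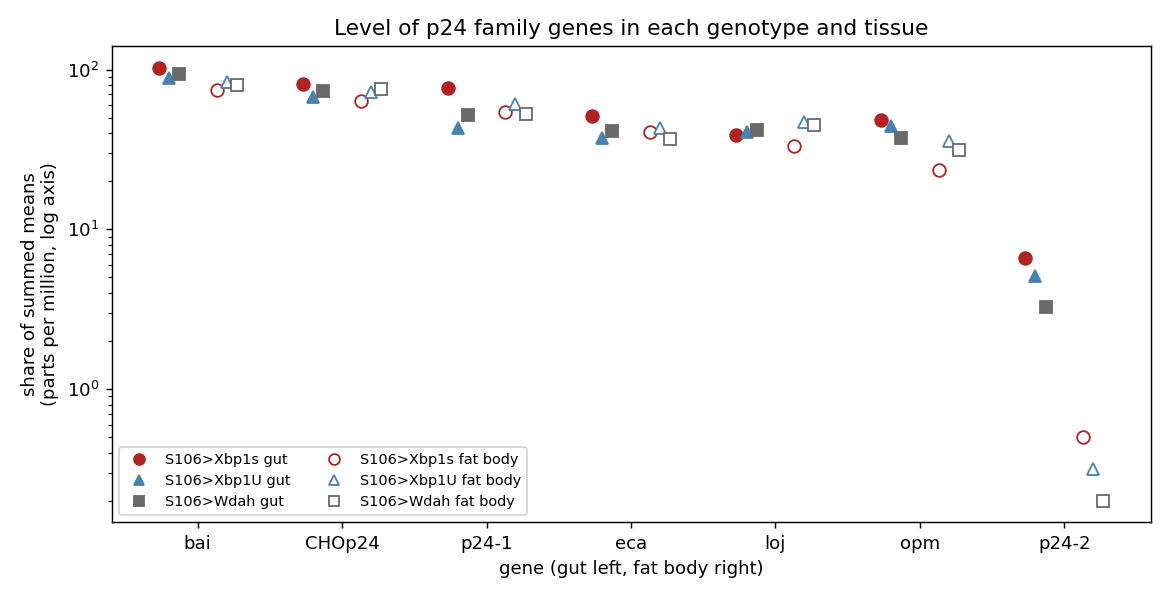
Level of each p24 family gene as a share of the summed means (ppm, log axis), with gut (filled) left of fat body (open) and 1 point per genotype, each point the authors' mean over RU+ and RU- libraries. bai and CHOp24 lie between 63.3 and 103 ppm in all 6 tables, and p24-2 lies at 3.28 to 6.60 ppm in gut and 0.20 to 0.50 ppm in fat body.

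bai (baiser, FBgn0045866, chromosome 3R from 25039374 to 25040443, plus strand, BDGP6.54 annotation on the dm6 assembly) encodes the delta-type p24 protein. Its deposited means were 2410, 2089 and 2102 in gut of S106>Xbp1s, S106>Xbp1U and S106>Wdah, and 1859, 1919 and 1946 in fat body. As shares these were 103, 89.1 and 94.1 ppm in gut, against 74.3, 83.9 and 80.3 ppm in fat body. All 3 gut shares lay above all 3 fat body shares, with the smallest gap in S106>Xbp1U. The log2 gut over fat body ratios were 0.47, 0.086 and 0.23, a mean of 0.26 or 1.20-fold. bai ranked between percentiles 79.5 and 85.7 of the 8408 genes that reached a mean of 10 in all tables, and made up 24.4% to 27.3% of the family's summed share.

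CHOp24 (FBgn0029709, chromosome X from 4540908 to 4542506, plus strand) encodes the beta-type p24 protein, the usual partner of the delta type in a heteromeric complex. It had means of 1890, 1575 and 1650 in gut, in the order S106>Xbp1s, S106>Xbp1U, S106>Wdah, and 1583, 1665 and 1826 in fat body. The shares were 80.9, 67.1 and 73.9 ppm in gut, against 63.3, 72.8 and 75.3 ppm in fat body. The ranges of the tissues overlapped, and the gut share was the higher one in S106>Xbp1s only. Its log2 gut over fat body ratios were 0.35, -0.12 and -0.029.

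eca (eclair, FBgn0069242, chromosome 3R from 9684469 to 9685476, minus strand) encodes an alpha-type p24 protein. Means were 1205, 881 and 924 in gut of S106>Xbp1s, S106>Xbp1U and S106>Wdah, and 1017, 982 and 891 in fat body. The shares were 51.5, 37.6 and 41.4 ppm in gut, against 40.6, 42.9 and 36.8 ppm in fat body. The tissues overlapped, with gut above fat body in S106>Xbp1s and S106>Wdah and below it in S106>Xbp1U (log2 ratios of 0.34, 0.17 and -0.19).

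p24-1 (FBgn0030341, chromosome X from 11850909 to 11852530, minus strand) encodes a gamma-type p24 protein. It had means of 1801, 1016 and 1159 in gut of S106>Xbp1s, S106>Xbp1U and S106>Wdah, and 1364, 1401 and 1275 in fat body. The shares of 77.1, 43.3 and 51.9 ppm in gut spanned the fat body shares of 54.5, 61.3 and 52.6 ppm. Its log2 gut over fat body ratio was 0.50 in S106>Xbp1s, -0.50 in S106>Xbp1U and -0.021 in S106>Wdah, so the direction differed with genotype. Among the 7 members only loj shared a mean ratio below 0 with it (-0.0074 for p24-1, -0.031 for loj).

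loj (logjam, FBgn0061492, chromosome 3L from 6094987 to 6096517, plus strand) is a p24 gene needed in females for egg laying. It had means of 908, 954 and 940 in gut of S106>Xbp1s, S106>Xbp1U and S106>Wdah, and 833, 1083 and 1090 in fat body. The shares were 38.9, 40.7 and 42.1 ppm in gut, against 33.3, 47.4 and 45.0 ppm in fat body. Gut shares spanned a narrow range that lay inside the fat body range, and the low fat body value was that of S106>Xbp1s. The log2 gut over fat body ratios were 0.22, -0.22 and -0.097.

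opm (opossum, FBgn0264389, chromosome X from 15064836 to 15066432, minus strand) encodes a p24 protein that is needed for export of the Wingless ligand from the ER. Means were 1134, 1042 and 840 in gut of S106>Xbp1s, S106>Xbp1U and S106>Wdah, and 589, 822 and 765 in fat body. The shares were 48.5, 44.4 and 37.6 ppm in gut, against 23.5, 35.9 and 31.6 ppm in fat body. All gut shares exceeded all fat body shares, and the lowest of the 6 was S106>Xbp1s fat body. opm had the highest mean log2 gut over fat body ratio of the 6 members at the minimum, 0.53 or 1.45-fold, with 1.04, 0.31 and 0.25 in the genotypes. In its transcribed region, 91 exonic bp (5.9%) overlap ND-B18 on the opposite strand, and 17 exonic bp (2.1%) of bai overlap 5PtaseI on the opposite strand. Whether counting used strand is not given in the sources used here.

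p24-2 (FBgn0053105, chromosome 3R from 9687402 to 9692794, minus strand) is an alpha-type paralogue of eca. The genes lie on the same strand with 1925 bp and the gene CG18542 between them. It was the low member, with means of 154, 120 and 73.3 in gut of S106>Xbp1s, S106>Xbp1U and S106>Wdah, and 12.5, 7.21 and 4.86 in fat body. In shares this was 6.60, 5.12 and 3.28 ppm in gut, against 0.50, 0.32 and 0.20 ppm in fat body. The lowest gut share lay above the highest fat body share, and the log2 gut over fat body ratios were 3.72, 4.02 and 4.03, a mean of 3.93 or 15.2-fold. Its mean was below 10 in S106>Xbp1U and S106>Wdah fat body and is outside the 8408 genes. In both tissues the order of genotypes was S106>Xbp1s, S106>Xbp1U, S106>Wdah.

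The p24-2 values are uncertain because of its neighbour. Of its 3554 exonic bp, 3535 bp (99.5%) lie in exons of Unc-115b, a cytoskeletal adaptor gene on the same strand, and 19 bp are its own. By this annotation, reads in that stretch could come from either gene. The authors counted over another annotation release, in which the overlap was not checked. How they treated reads that lie in both genes is not given. Unc-115b had means of 131, 125 and 96.0 in gut of S106>Xbp1s, S106>Xbp1U and S106>Wdah, and 49.1, 30.1 and 32.2 in fat body, with log2 gut over fat body ratios of 1.51, 2.02 and 1.69. Both genes were higher in gut in all 3 genotypes, with larger ratios for p24-2. Reads may also be shared between eca and p24-2, which was not tested.

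Levels per exonic length gave the same order of genes in both tissues. The mean over genotypes was 118 ppm per kb in gut and 98.5 ppm per kb in fat body for bai, and 63.1 and 60.1 ppm per kb for CHOp24. eca stood at 46.0 ppm per kb in gut and 42.4 ppm per kb in fat body, p24-1 at 37.3 and 36.4 ppm per kb, and loj at 34.4 and 35.5 ppm per kb. opm had 28.4 ppm per kb in gut and 19.8 ppm per kb in fat body, and p24-2, with the limit above, 1.41 and 0.095 ppm per kb. bai, CHOp24 and eca, which stand for the delta, beta and alpha types, thus led this order. Neighbours whose ranges over genotypes overlapped were eca with p24-1 and p24-1 with loj, in both tissues. Within genotypes, eca was above p24-1 in 6 of 6 tables and p24-1 above loj in 2 of 6.

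**Figure D2:**
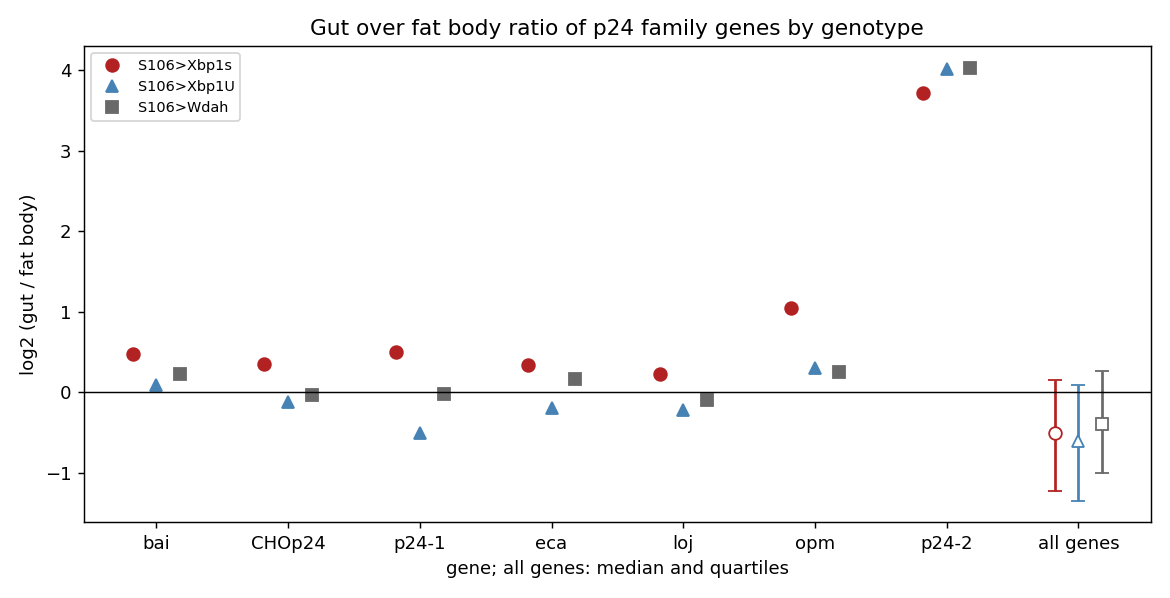
Log2 gut over fat body ratio of shares for each p24 family gene, 1 point per genotype, beside the median (open symbol) and quartiles (bars) of 8408 genes. The 3 points of bai, opm and p24-2 are above 0, and every p24 point lies above its genotype's all-gene median of -0.51 (S106>Xbp1s), -0.60 (S106>Xbp1U) or -0.39 (S106>Wdah).

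Gut was above fat body in all 3 genotypes for 3 of 7 members (p24-2, bai and opm), and for 2 of the 6 at the minimum, beside 23.4% of the 8408 genes. The same 3 members, 2 of the 6 at the minimum, had gut and fat body shares that did not overlap, beside 19.7% of genes. Of the 7 members 0 were below fat body in all genotypes, beside 63% of genes, and 0 had gut shares that all lay below the fat body shares, beside 55.5%. The members' median log2 gut over fat body ratio was 0.47 in S106>Xbp1s, -0.12 in S106>Xbp1U and 0.17 in S106>Wdah, and over the 6 at the minimum 0.41, -0.15 and 0.075, set beside all-gene medians of -0.51, -0.60 and -0.39. By the mean ratio, the 6 members at the minimum stood between percentile 69.8 (loj) and percentile 83.3 (opm) of the 8408 genes. Set against the same genes, p24-2 came to percentile 96.3. It is not one of them, and the set leaves out other genes with low means in fat body, so this percentile is not like those of the 6.

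Direction depended on scaling for 4 members. When each ratio was taken relative to the median gene, all 7 were higher in gut in all 3 genotypes, beside 41.3% of genes, and 0 were lower, beside 41.9%. In lists described below, 8 of 8 COPII, 8 of 8 COPI and 9 of 10 UPR genes were also higher in this way. So were 4 of 5 other cargo receptors and 9 of 11 tethers and SNAREs, so it was not particular to the p24 genes. With tables scaled by the median of ratios, CHOp24, p24-1, eca and loj were likewise higher in gut in each genotype. Scaling by the median of ratios moved the median gene's ratio by 0.58 in S106>Xbp1s, 0.63 in S106>Xbp1U and 0.36 in S106>Wdah. Under all of the scalings tried, bai, opm and p24-2 were higher in gut in each genotype.

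The gut over fat body ratio was largest in S106>Xbp1s for 6 of 7 members, the exception being p24-2, and for 6 of the 6 at the minimum, beside 23.6% of genes. The same 6 members met this under each scaling, where the share of all genes ran from 20.5% to 39.4%. Genes of related lists also met it, as given below. In gut, S106>Xbp1s had the highest share of the 3 genotypes for 6 of 7 members, all but loj, beside 35.2% of genes. In fat body it had the lowest share for CHOp24, bai, loj and opm, 4 of 7, beside 33.7% of genes. Both held for CHOp24, bai and opm, beside 3.25% of genes. Since RU+ and RU- libraries are pooled, genotype, RU486 and any batch cannot be told apart in these orders.

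**Figure D3:**
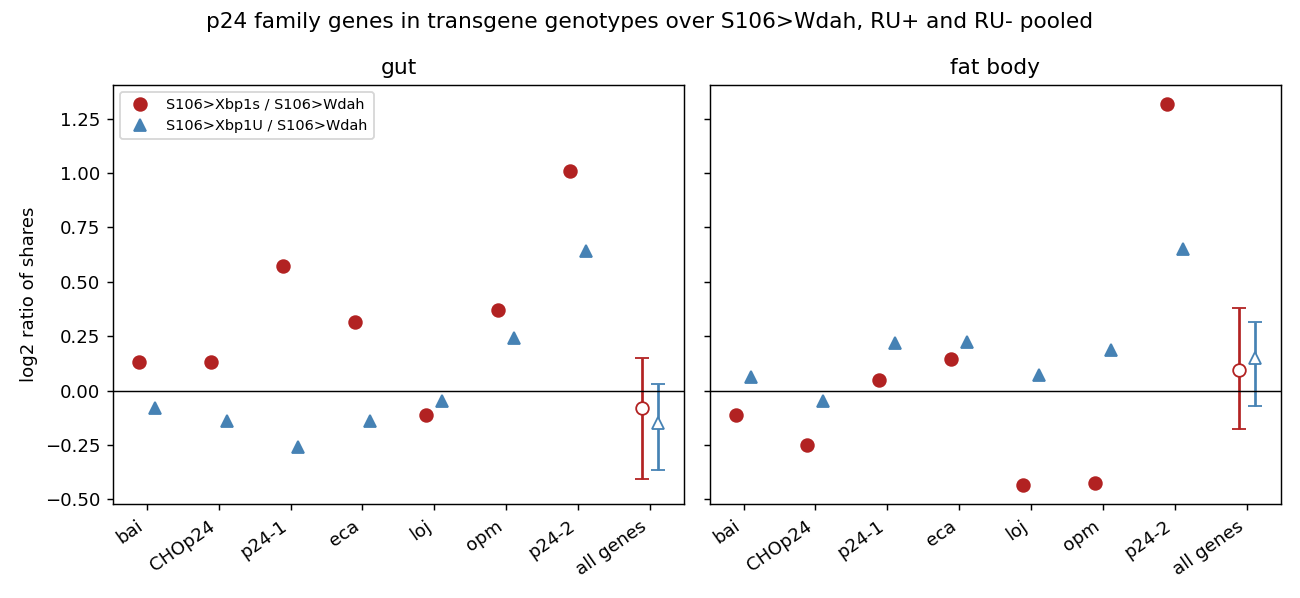
Log2 ratio of shares in S106>Xbp1s (circles) and S106>Xbp1U (triangles) over S106>Wdah for each p24 family gene, gut at left and fat body at right, RU+ and RU- pooled, with the median and quartiles of 8408 genes. In gut the S106>Xbp1s points of 6 members are above 0 and loj is at -0.11, while in fat body loj (-0.44) and opm (-0.42) are the lowest.

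Set against S106>Wdah guts, S106>Xbp1s guts had log2 ratios of 1.01 for p24-2, 0.57 for p24-1, 0.37 for opm, 0.32 for eca, 0.13 for CHOp24, 0.13 for bai and -0.11 for loj. The members' median was 0.32, or 0.22 over the 6 at the minimum, beside -0.081 for all genes. In fat body the S106>Xbp1s over S106>Wdah ratios were 1.32 for p24-2, 0.14 for eca, 0.051 for p24-1, -0.11 for bai, -0.25 for CHOp24, -0.42 for opm and -0.44 for loj. There the members' median was -0.11, or -0.18 over the 6, beside 0.095 for all genes, so the members' median lay above that of all genes in gut and below it in fat body. opm was the member whose ratio differed most between tissues.

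S106>Xbp1U over S106>Wdah gave a median over the members of -0.079 in gut, beside -0.15 for all genes, and of 0.19 in fat body, beside 0.15. In gut the ratios were 0.64 for p24-2, 0.24 for opm, -0.050 for loj, -0.079 for bai, -0.14 for CHOp24, -0.14 for eca and -0.26 for p24-1. In fat body they were 0.65 for p24-2, between 0.064 and 0.22 for bai, loj, opm, p24-1 and eca, and -0.050 for CHOp24. The S106>Xbp1U medians thus lay closer to those of all genes than the S106>Xbp1s medians did in both tissues. S106>Xbp1s and S106>Xbp1U ratios share the S106>Wdah table. The eggshell and germline sums given above were lowest in S106>Xbp1s and highest in S106>Wdah in both tissues. In fat body, S106>Xbp1s was the lowest genotype for 3 of 4 eggshell genes and 1 of 3 germline genes at the minimum. There Cp36 (733, 236 and 422 ppm in S106>Xbp1s, S106>Xbp1U and S106>Wdah) and osk (138.4, 131.6 and 138.0 ppm) were highest in S106>Xbp1s. In gut, sums also rose from S106>Xbp1s over S106>Xbp1U to S106>Wdah for fat body markers (802, 1265 and 1936 ppm) and oenocyte markers (83.2, 118 and 324 ppm). The same held for hemocyte markers (4.80, 6.81 and 9.44 ppm) and Uro (13.0, 45.5 and 62.9 ppm). Of the 8 fat body markers at the minimum, only bmm (157, 103 and 126 ppm) was highest in S106>Xbp1s gut. In fat body, sums instead fell from S106>Xbp1s over S106>Xbp1U to S106>Wdah for fat body markers (105545, 93341 and 63281 ppm) and muscle (2172, 1841 and 1375 ppm). Hemocyte (155, 101 and 84.7 ppm) and neuron markers (16.1, 14.1 and 11.0 ppm) did so too. There Lsp2 (1.81, 3.66 and 2.23 ppm), Tsf1 (229, 565 and 253 ppm) and Syt1 (2.88, 2.12 and 2.40 ppm) departed from their list's sum. elav (9.95, 9.29 and 6.39 ppm) made up most of the neuron sum. The gut marker sum in gut fell in the same way, at 51879, 49315 and 41240 ppm, but the list was split. Of its 8 genes, 4 were highest in S106>Xbp1s gut. mex1 (199, 240 and 299 ppm), Mal-A1 (4965, 5085 and 5381 ppm) and Npc2f (214, 232 and 254 ppm) were lowest there. The part of these markers in the genotype ratios was not tested.

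Genes that act with p24 proteins were described from lists chosen by function. CG9308, a further p24 gene, was listed at 0 in 5 tables and with a mean of 0.14 in S106>Xbp1s fat body, and CG31787 was not analysed here. Of the COPII coat and ER exit genes, 8 of 8 at the minimum, 2 were higher and 2 lower in gut in all 3 genotypes, with a median log2 gut over fat body ratio of 0.011. Tango1, which loads bulky cargo, was at 0.69 and Sar1, the GTPase that starts COPII assembly, at -0.37. Of the COPI coat list, 8 genes at the minimum, 6 were higher in gut in all genotypes and 0 lower, with a median of 0.33 and values between 0.50 for alphaCOP and 0.070 for epsilonCOP. The p24 median on the same scale, over 6 members, was 0.088, between the COPII and COPI medians, beside -0.49 for all genes.

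**Figure D4:**
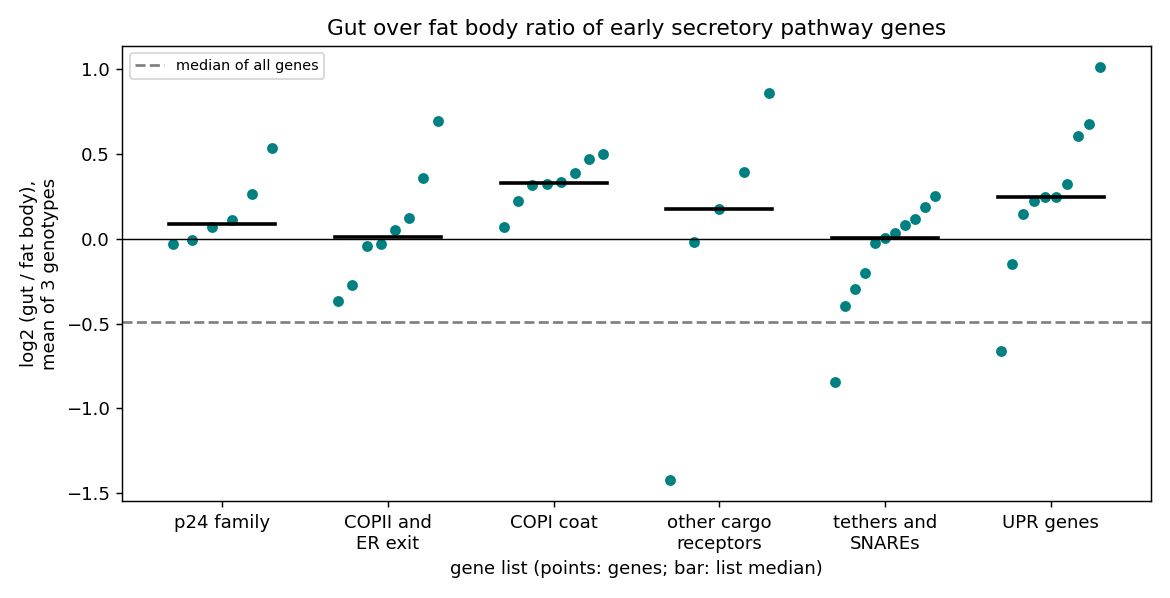
Log2 gut over fat body ratio (mean of 3 genotypes) for the genes of 6 lists that reached a mean of 10 in all tables, each point a gene and each bar the list's median. The COPI bar stands at 0.33, the p24 bar at 0.088 and the COPII bar at 0.011, above the dashed all-gene median of -0.49.

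Other cargo receptors numbered 5, of which 2 were higher and 1 lower in gut in all genotypes, with cni, which exports growth factor precursors, at 0.86 and its relative cnir at -1.42. Among 11 tethers and SNAREs, which dock and fuse vesicles, 2 were higher and 4 lower, with Grasp65 at 0.25, Golgin84 at -0.84 and a median of 0.0048. UPR genes, 10 in all, had 5 higher and 2 lower, with Cnx99A, the ER chaperone calnexin, at 1.01, crc, the fly ATF4, at -0.66 and a median of 0.24. The list includes Xbp1 itself, to which the transgenes may add reads. For Wingless secretion, wls, the Wingless carrier, was at -0.58 and por, its acyltransferase, at -1.42, both lower in gut in all genotypes, as were 63% of all genes, while wg was below the minimum. Relative to the median gene, por stayed lower in each genotype, and wls stood at 0.077 in S106>Xbp1s, -0.16 in S106>Xbp1U and -0.16 in S106>Wdah.

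S106>Xbp1s was the highest genotype in gut for 5 of 6 p24 genes at the minimum, 6 of 8 COPII, 6 of 8 COPI, 3 of 5 other cargo receptor, 10 of 11 tether and SNARE and 8 of 10 UPR genes, beside 35.2% of all genes. These 8 UPR genes include Xbp1, to which the transgene may add reads. S106>Xbp1s was the lowest genotype in fat body for 4 of 6 p24 genes, 0 of 8 COPII, 2 of 8 COPI, 3 of 5 other cargo receptor, 0 of 11 tether and SNARE and 1 of 10 UPR genes, beside 33.7% of all genes. The median S106>Xbp1s over S106>Wdah ratio in fat body was -0.18 for the p24 genes, -0.037 for other cargo receptors, 0.26 for COPII, 0.19 for COPI, 0.15 for tethers and SNAREs and 0.054 for UPR genes, beside 0.095 for all genes. The other cargo receptors were thus the list nearest to the p24 genes in this ratio. The gut over fat body ratio was also largest in S106>Xbp1s for all COPI genes at the minimum but alphaCOP. This held for KdelR, ergic53 and Surf4 of the other cargo receptors, though not for cni or cnir. It also held for part of the COPII, tether and SNARE and UPR lists, so it was not particular to the p24 genes. The differences between lists were not tested.

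Likeness of pattern was measured as the root mean square difference of log2 shares over the 6 tables, each gene centred on its own mean, among 8407 other genes. The genes nearest to bai were CRIF (0.048), PIG-V (0.048) and AP-1mu (0.050), and those nearest to CHOp24 were CG15011 (0.028), Mkk4 (0.059) and Ubc10 (0.060). For eca they were Sec6 (0.050), Ilk (0.056) and Vps36 (0.056), and for p24-1 CG14696 (0.099), twr (0.11) and CR43671 (0.11). For loj they were Dhps (0.042), mbf1 (0.072) and NC2beta (0.073), and for opm Syx13 (0.095), twf (0.12) and lncRNA:CR43900 (0.13). The median difference over all genes was 0.49 to 0.68, depending on the member. No p24 gene was among the 3 nearest to another. Ranks between members ran from 9 (eca from p24-1) and 47 (bai from CHOp24) up to 2442 (opm from p24-1).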

How the data were processed

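The authors aligned poly(A) RNA reads to dm6 with HISAT2, counted them over exons per gene with featureCounts, removed samples that clustered apart, and ran DESeq2 within each genotype and tissue (versions not given in the sources used here). The signal values deposited by the authors are size-factor-normalized counts averaged over the RU+ and RU- libraries of a table. The other 6 columns of each table hold the authors' own RU+ over RU- comparison (fold change, its error, statistic and p-values) and were not used. Genes called in S106>Wdah are absent from the other tables of that tissue.

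Means were rescaled to parts per 1000000 of the sum over the 16160 genes common to the 6 tables. A mean of at least 10 in every table left 8408 genes. Tables were normalized separately, so no test was made. Exonic length is the union of exons in BDGP6.54 (Ensembl release 115), where 16152 of 16185 identifiers (99.8%) had a symbol. Of 101 listed symbols, 96 were in all tables. Named genes were all members, each list's highest and lowest gene, Xbp1, and the 3 genes nearest each member in pattern. Other list genes were named where they departed from their list's sum or median or shared an order with the p24 genes. Unc-115b, ND-B18, 5PtaseI and CG18542 were named for their position. Members and lists were chosen with earlier results of these data known. The rescaling of tables and the tissue ratio were tested on simulated data, and the other calculations were not. Alternatives were other scalings, a pseudocount of 1, minimum means above 0 or of 100, the longest transcript, and leaving out a genotype. Python 3.11.15, numpy 2.4.6, pandas 2.3.3 and matplotlib 3.10.9 were used.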

Additional observations from a re-analysis of the deposited data

How the results depend on the processing

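Across 97 recalculations, 73 stayed close to the value given (for a tissue ratio, within the spread over genotypes), 11 moved further with the same sign and 13 changed sign. With median of ratios scaling, the number of p24 genes higher in gut in all 3 genotypes was 7 (3 with shares), their median gut over fat body log2 ratio 0.63 (0.11 with shares), and the median S106>Xbp1s over S106>Wdah ratio in gut 0.49 (0.32 with shares). Of 49 mean gut over fat body ratios of single members 6 moved with the same sign and 9 changed sign. p24-1 was positive with median of ratios (0.52), without the 100 genes with the highest means (0.11) and without S106>Xbp1U (0.24). loj was positive under the same settings (0.49, 0.089 and 0.063) and without S106>Wdah (0.0017). Without S106>Xbp1s, CHOp24 was at -0.073 and eca at -0.011, and the members' median was -0.011. No sign changed for bai, opm or p24-2. For the family sum, an alternative chosen after seeing the data, the S106>Xbp1U ratio was 0.56 with median of ratios and 0.12 without the top 100 genes, and the S106>Wdah ratio -0.021 with no rescaling. The number of members lowest in S106>Xbp1s fat body, also chosen after seeing the data, was 4 with shares (33.7% of all genes), 5 with median of ratios (34.8%) and 6 without the 100 genes with the highest means (44.9%). The order per length was the same with the longest transcript. Because the values are means over RU+ and RU- libraries, leaving out single libraries could not be run, and depth limits precision to an unknown degree. No paired analysis was possible because the tables used here hold no single library.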
